A study of Homo sapiens with 16 samples.

Results

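The bases described here lie close to the ends of human protein-coding genes. They are bases called as N6-methyladenosine (m6A) in any of 8 m6A-eCLIP libraries that fall 0 to 500 nt upstream of the 3′ end of a protein-coding gene's span on hg38, on the strand of that gene, and more than 200 nt from its 5′ end. The rule found 28872 such bases in 3552 genes, which is 6.38% of the 452349 bases called in any library. The last 500 nt of a gene are called its end window. The strand of a gene came from a reference table or, where that gave none, from the called bases themselves, and 4260 of the bases rest on the second source. Other called bases of protein-coding genes, 307275 in all and more than 200 nt from the 5′ end, served for comparison of numbers, scores and fates as the rest of the gene. In sums per gene the rest also held the first 200 nt, and values without them are given beside the results.

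The libraries came from U87 MG, an established human glioma line, and from U87-R, a derivative of it that is resistant to the alkylating drug temozolomide and was grown with 50 µM temozolomide. There were 2 libraries of U87-R treated for 96 hours with STM2457 at 50 µM, which inhibits METTL3, the enzyme that writes m6A, 3 of U87-R with the solvent DMSO, and 3 of U87 with DMSO. All 3 groups are 1 parental line and its derivative, and the STM2457-treated cells also had temozolomide in their medium per the growth protocol. In m6A-eCLIP, polyA RNA is fragmented, an m6A antibody is crosslinked to it, and the bound base is read from the sequencing. Input libraries were not analysed here, so every value joins methylation with the abundance of the RNA, and fewer molecules cannot be told apart from less methylation per molecule. The labels do not say whether replicates were grown separately, and the p-values cover only the spread seen between these libraries.

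Most m6A in messenger RNA is written while the RNA is being made, by a complex of METTL3 and METTL14, usually at an A that follows G or A and precedes C. It is found most often around stop codons and in 3′ untranslated regions, the stretch of an mRNA that lies before its polyA tail. Readers of the YTH family bind it there and shorten the life of many mRNAs. The gene table used here holds spans and no exons, so exons, introns and untranslated regions were not told apart. The gene end is the outermost annotated end, and a transcript that stops earlier ends inside or upstream of the window.

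A few sequences show what a called base in an end window looks like. They are those for which a RefSeq promoter sequence of a neighbouring gene, on GRCh38.p14, covers the window, a selection by gene spacing, and 27 bases of 16 genes with a score of at least 10 in at least 2 libraries could be read. Each line gives 25 bases from 5′ to 3′ on the strand of the gene in DNA letters, and capitals mark the called base with the base on either side of it. The first 5 are shown for their different fates under STM2457 at the letters GAC, and the last 3 for a base whose centre is AAC, a base with no A that was called in all libraries, and a base called in the STM2457-treated libraries alone.
ZSWIM8, 189 nt from the gene end, chr10:73801592-73801616, plus strand: aaacttggctgGACagatcatcctc
TAF6L, 71 nt from the gene end, chr11:62787259-62787283, plus strand: gggcgctctcgGACtactcgctgta
MCOLN1, 74 nt from the gene end, chr19:7533923-7533947, plus strand: ctttcgtgtcgGACccttgggggcg
TATDN2, 404 nt from the gene end, chr3:10280802-10280826, plus strand: aagacttggggGACtgccgagcata
SLC2A4RG, 273 nt from the gene end, chr20:63743765-63743789, plus strand: agaaacttggaGACtcaccgcagag
TAF6L, 124 nt from the gene end, chr11:62787206-62787230, plus strand: ctacgtgcagaAACtgcccatgatc
CEBPB, 442 nt from the gene end, chr20:50192236-50192260, plus strand: tatatctatatTTTtgtccaaacca
SEC24C, 93 nt from the gene end, chr10:73772056-73772080, plus strand: gctccccacctGGGatgcccctgct

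Among the 27 bases, 16 were an A, 7 a G, 3 a T and 1 a C. The letters GAC with the A at the called base stood at 13 of 27 (48.1%), and GGAC at 8 of 27 (29.6%). Over all positions of the promoter table GAC stood at 1.20% and GGAC at 0.402%. On the other strand, GAC reads GTC, which stood at 0 of 27 called bases and at 1.22% of table positions. GGAC holds GAC, so the counts overlap. With bases of any score, GAC stood at 27 of 146 (18.5%). Matches are descriptions of these letters and not methylated sites.

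The scores at the printed bases show fates that differ within 1 gene. The score is the number the authors gave each called base, with a formula that the sources used here do not give, and a base missing from a library's list is written as 0. At ZSWIM8, a substrate receptor of a ubiquitin ligase, the GAC base scored 49.2 and 38.8 in the STM2457-treated libraries, against 95.02, 97.1 and 89.5 in U87-R libraries and 101, 89.3 and 88.04 in U87 libraries. At TAF6L, a subunit of a histone acetyltransferase complex, the GAC base scored 43.6 and 52.3 in STM2457-treated libraries, against 84.8, 49.9 and 43.1 in U87-R libraries and 35.7, 60.9 and 45.3 in U87 libraries. The treated and U87-R groups overlapped there. A TAF6L base at AAC, in the same window, scored 2.32 and 2.17 in STM2457-treated libraries, against 79.4, 56.8 and 63.5 in U87-R libraries and 57.4, 47.3 and 77.3 in U87 libraries, with no overlap. The GAC bases of MCOLN1, a lysosomal cation channel, and TATDN2, a nuclease, were not called in either STM2457-treated library and were called in all 6 others. Among 24 of the 27 bases, those outside chromosome 8, 12 were GAC, and 7 of these were absent from both STM2457-treated libraries, 2 had at least 10 in both and 3 had other values. Of the 12 with other letters, 2 were absent from both, 6 had at least 10 in both and 4 had other values.

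STM2457-treated U87-R held far fewer called bases in end windows than U87-R. The 2 treated libraries held 4658 and 5073, against 13822, 10406 and 12520 in U87-R libraries, and 10850, 12002 and 13167 in U87 libraries. The mean was 4866 ± 293 in treated cells (SD, n = 2) and 12249 ± 1724 in U87-R (SD, n = 3), a ratio of 0.397. The groups did not overlap, and the exact two-sided permutation p was 0.1, the smallest that 2 against 3 libraries can give. The ratio over all called bases was 0.634, and end windows held a smaller share of the bases given to a gene. That share was 5.16% and 5.37% in STM2457-treated libraries, against 8.04%, 7.77% and 8.20% in U87-R libraries (exact permutation p = 0.1). Between the lines the means were 12249 ± 1724 in U87-R and 12006 ± 1159 in U87 (SD, n = 3 each), which overlapped (ratio 1.02, exact permutation p = 0.8). The share was 8.00 ± 0.215% in U87-R and 8.01 ± 0.136% in U87 (exact permutation p = 0.9).

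Fewer genes carried a base in their end window under STM2457, and each carried fewer bases. The counts were 1448 and 1494 genes in treated libraries, against 2712, 2406 and 2601 in U87-R libraries. The bases per such gene averaged 3.31 in treated cells and 4.75 in U87-R. Of 1910 genes with a window base in every U87 and U87-R library, 611 (32.0%) had none in either treated library and 1066 (55.8%) had one in both. Another 37 genes had a window base in both treated libraries and none in the other 6. The genes of these counts were chosen by the libraries in which they had calls. The same counts were not made for the rest of genes, so they only describe the windows.

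**Figure D1:**
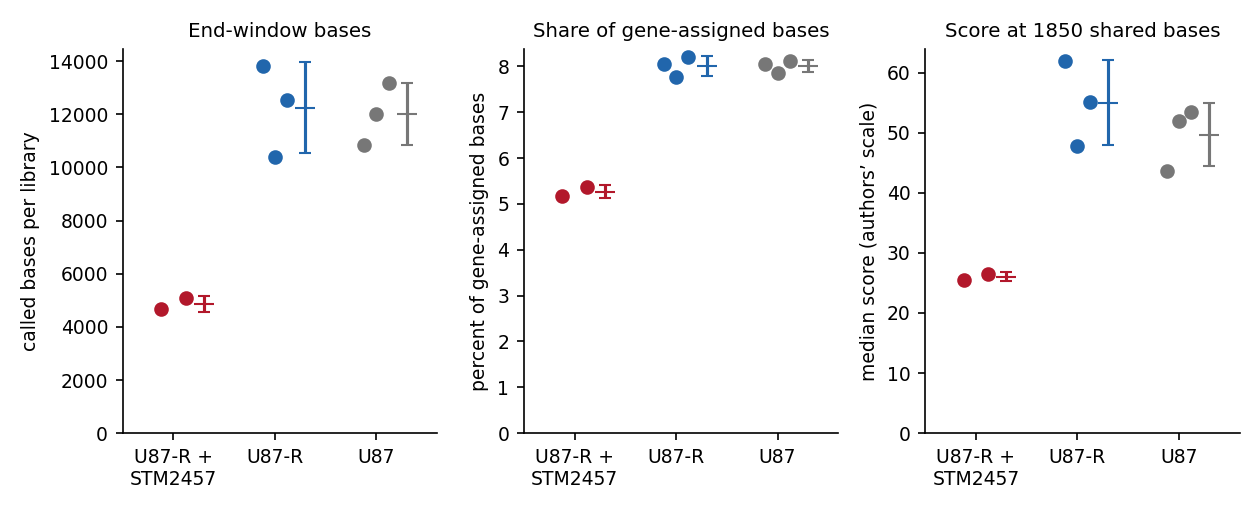
Called bases in end windows, their share of all bases given to a gene (percent), and the median score at the 1850 window bases called in all 8 libraries, with 1 point per library and the mean ± SD beside it. In all 3 plots the 2 STM2457-treated libraries sit below the 3 U87-R and the 3 U87 libraries, and the untreated lines overlap.

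Scores were lower as well as numbers. The median over all called window bases moved little, to 9.15 ± 0.104 in STM2457-treated libraries (SD, n = 2), against 9.81 ± 0.325 in U87-R libraries (SD, n = 3). At the 1850 window bases called in all 8 libraries the medians were 25.6 and 26.6 in treated libraries, against 62.0, 47.8 and 55.1 in U87-R libraries and 43.6, 51.9 and 53.5 in U87 libraries. This is a ratio of 0.474 for STM2457 (exact permutation p = 0.1). At 20426 shared bases of the rest of genes the ratio was 0.599. Scores of at least 100 were held by 67 and 82 window bases in treated libraries, against 270, 307 and 292 in U87-R libraries, a ratio of 0.257. The top score per library was higher in treated cells, 209 and 205, against 188, 185 and 181 in U87-R libraries. Between the lines, 270 to 307 bases reached 100 in U87-R libraries and 165 to 229 in U87 libraries, with no overlap (ratio 1.43, exact permutation p = 0.1, the smallest possible). Scores of at least 100 were not counted outside the windows, so these counts only describe the windows. At bases called in all 8 libraries, the ratio of U87-R to U87 medians was 1.11 in windows and 1.10 in the rest of genes.

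Called bases were sparse next to the gene end. In the last 30 nt, each step of 10 nt held on average 4.33 to 9.33 bases per U87-R library, then 85 at 40 to 49 nt and 225 at 50 to 59 nt from the end. In steps of 50 nt, the mean was 42 bases in treated libraries and 130 in U87-R libraries at 0 to 49 nt. From 50 to 999 nt the U87-R mean lay between 1058 and 1504. At 50 to 99 nt it was 516 in treated libraries and 1236 in U87-R libraries. It peaked in U87-R at 250 to 299 nt, with 609 bases per treated library and 1504 per U87-R library. At 950 to 999 nt it was 495 in treated libraries and 1082 in U87-R libraries. The ratio of treated to U87-R was 0.323 in the first 50 nt, 0.363 to 0.423 in the other steps of the window, and 0.408 to 0.480 from 500 to 999 nt.

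**Figure D2:**
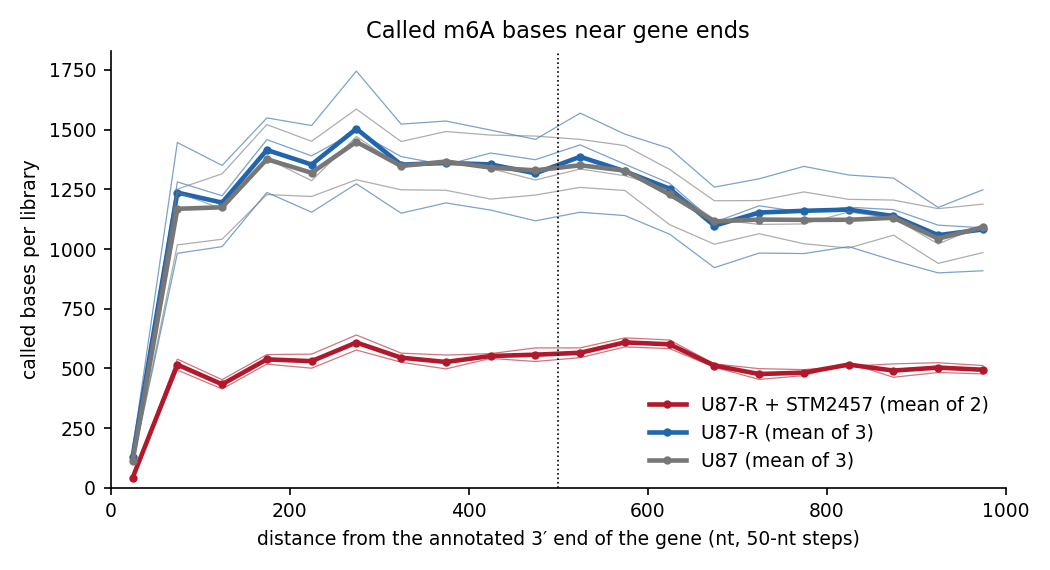
Called bases per 50-nt step (vertical axis) by distance upstream of the gene end in nt, with a thin line per library, a thick line per group mean and a dotted line at 500 nt. The STM2457-treated mean stays below both untreated means at every step, and all lines drop in the 50 nt next to the end.

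The fate of the bases was followed from U87, where 3709 window bases scored at least 10 in all 3 libraries. A base was kept if it was called at any score. STM2457-treated libraries kept 50.3% (95% Wilson interval 48.7 to 51.9) and 52.0% (50.3 to 53.6), against 98.3%, 95.8% and 97.7% in U87-R libraries. The means were 51.1 ± 1.18% in treated cells (SD, n = 2) and 97.3 ± 1.31% in U87-R (SD, n = 3). The difference of −46.1 points exceeded the spread between libraries (exact permutation p = 0.1). The intervals cover counting error only. Both treated libraries lacked 1549 of these bases (41.8%), whereas 11 (0.297%) were missing from all 3 U87-R libraries. At bases called in both treated libraries, the median ratio of the mean treated to the mean U87-R score was 0.507.

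Window bases were kept less often than those of the rest of the gene. For 32549 U87 bases of the rest of genes, chosen by the same scores, treated libraries kept 60.7 ± 1.53% (SD, n = 2) and U87-R libraries 97.3 ± 0.842% (SD, n = 3). Within each library, the kept share of window bases minus that of the rest was −9.62 ± 0.347 points in treated libraries and −0.0754 ± 0.526 points in U87-R libraries, with no overlap (exact permutation p = 0.1). The kept share in treated libraries was 51.1% at 0 to 500 nt from the end, 55.7% at 501 to 1000 nt, 59.6% at 1001 to 2000 nt, and 61.3% to 62.3% beyond. Among bases within 50 nt of a gene's 5′ end it was 97.4%. Bases with lower scores were kept less often in both regions. In the bin of 10 to 20 by mean U87 score, treated libraries kept 29.3% of 379 window bases and 40.2% of 3613 other bases. From 20 to 40 they kept 34.8% and 49.2%, and from 40 to 80 they kept 64.9% and 71.2%. Above 80 the shares were 87.4% of 482 window bases and 87.8% of 4296 other bases, so the gap was not seen at the highest scores.

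**Figure D3:**
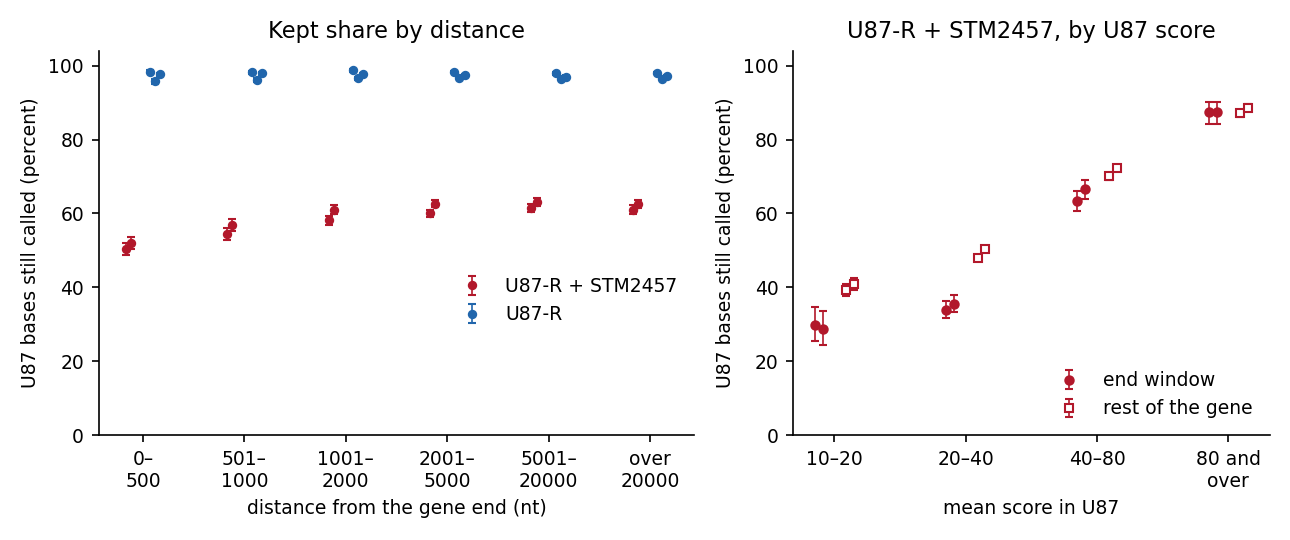
Left, percent of U87 bases kept by zone of distance from the gene end in nt, with 1 point per library and 95% Wilson intervals. Right, percent kept in the STM2457-treated libraries by mean U87 score, for end windows (filled circles) and the rest of genes (open squares). U87-R libraries keep over 95% in every zone, and the treated libraries keep least in the end window and in the lowest scores.

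The authors' lists of reproducible sites, 1 per group, also held fewer window sites under STM2457, but the lists differ in the share of libraries behind a site. Every window site of the STM2457 list was found in both of its libraries, whereas the lists of the lines include sites not found in all of theirs. Sites found in all libraries of their group numbered 586 in the STM2457 list, 1950 in the U87-R list and 1882 in the U87 list. Over all its window sites the STM2457 list held 586 sites, the U87-R list 2681 and the U87 list 2572, which is 4.87%, 7.98% and 8.07% of each list's sites given to a gene. The STM2457 and U87-R lists shared 562 sites, 95.9% of the STM2457 sites and 21.0% of the U87-R sites. U87-R and U87 shared 2210, 82.4% of the U87-R sites and 85.9% of the U87 sites. Of 3056 window sites in any list, 1665 (54.5%) were in both lines and not under STM2457, against 48.5% of 32906 sites of the rest of genes. Sites in the STM2457 list alone were 13 (0.425%) in windows and 733 (2.23%) in the rest. The lists join libraries, so these shares have no replicate error. Reproducible peaks touched 996 windows under STM2457, 2073 in U87-R and 2042 in U87, of 17428 windows with a known strand; 927 windows had one in both STM2457 and U87-R, 93.1% of the treated and 44.7% of the U87-R windows.

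Per gene, the scores of the window bases were summed in each library and tested with limma on log2(sum + 1), adjusted over 12686 rows that hold windows, the rest of genes and other genes. Of 17428 windows, 2367 reached a sum of 10 in 2 or more libraries. With STM2457 1451 of them (61.3%) were lower and 59 (2.49%) higher than in U87-R, against 40.7% lower and 7.17% higher over all rows. The median change was −2.49 for windows and −0.57 for all other rows (−1.19 without the first 200 nt of genes), on the log2(sum + 1) scale. Those other rows include long noncoding genes and genes without a tested window. In the 2184 genes with window and rest both tested, the medians were −2.47 for the window and −0.46 for the rest. All treated libraries lay below all U87-R libraries in 1673 windows (70.7%) and above them in 99 (4.18%). The same shares were not counted over all rows, so these only describe the windows. Of the 1451 lower windows, 627 (43.2%) had no base in either treated library, so their fitted change depends on the pseudocount of 1 and is no fold. Such windows, here and below, passed the filter on sums through the untreated libraries alone, so their p-values only describe them. In the 1063 windows with a base in all 8 libraries the median change was −1.37, with 644 (60.6%) lower and 13 (1.22%) higher. Centring the libraries on their median moved the window median to −1.86, and 1165 windows were then lower and 97 higher.

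The 10 windows with the highest sums in U87-R all fell, though ITGA5, TMEM158 and P3H3 did so only before the libraries were centred on their median. EEF2, the elongation factor that moves ribosomes along mRNA (chr19:3976056-3985463, minus strand), had a window sum of 507 and 510.2 in STM2457-treated libraries, against 1372, 1305 and 1461 in U87-R libraries and 1331, 1229 and 1381 in U87 libraries. Every treated library was below every other, and limma gave a log2 change of −1.44 ± 0.11 (SE), adjusted p = 5.7e-05. PLOD1, a lysyl hydroxylase that modifies collagen (chr1:11934717-11975537, plus strand), had 391 and 395 in treated libraries, against 1066, 1158 and 1065 in U87-R libraries and 826, 845 and 899 in U87 libraries. Its groups did not overlap either, and limma gave −1.48 ± 0.11 (SE), adjusted p = 5.5e-05. PPIB, a cyclophilin of the endoplasmic reticulum that helps collagen fold (chr15:64155817-64163022, minus strand), had 177 and 110.2 in treated libraries, against 1057, 912 and 920.1 in U87-R libraries and 696, 870.5 and 841 in U87 libraries. That was the largest log2 change of the 10, limma giving −2.77 ± 0.21 (SE), adjusted p = 5.6e-05. The dynein light chain DYNLL1 had 136 and 223 in treated libraries and 944, 779.7 and 897 in U87-R libraries (limma log2 change −2.31 ± 0.23 (SE), adjusted p = 1.5e-04).

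Among the other genes of this group RRAD, a Ras-related GTPase, changed by −1.62, RAC2, a GTPase best known from blood cells, by −1.31, and DDX23, an RNA helicase of the spliceosome, by −1.20, with limma adjusted p of 8.8e-05, 7.8e-04 and 8.2e-04. ITGA5, the alpha subunit of a fibronectin receptor, had 638 and 703 in treated libraries, against 1279, 1146 and 1202 in U87-R libraries (limma log2 change −0.85 ± 0.12 (SE), adjusted p = 9.0e-04). The change of ITGA5, of the membrane protein TMEM158 (−0.82) and of P3H3, a prolyl 3-hydroxylase family member (−0.60), was no longer called when libraries were centred on their median, with limma adjusted p of 0.233, 0.326 and 0.914, and P3H3 then stood at 0.03. Nor were these 3 called with sums scaled to the library total (0.0948, 0.143 and 0.995).

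Other windows held no called base after treatment. Windows listed at 0 in both treated libraries passed the filter on sums through the untreated libraries alone. Their p-values, here and in the gene lists below, only describe them and are no independent support. TRIP10, an adaptor that links membrane curvature to actin (chr19:6739680-6751530, plus strand), was listed at 0 in both STM2457-treated libraries, against 343, 367 and 278 in U87-R libraries and 359, 282 and 318 in U87 libraries (limma adjusted p = 9.4e-06). ATG101, a subunit of the kinase complex that starts autophagy (chr12:52065300-52077495, plus strand), was listed at 0 in both treated libraries, against 342, 252 and 307 in U87-R libraries (limma adjusted p = 9.4e-06). DUSP1, a phosphatase that inactivates MAP kinases (chr5:172768096-172771195, minus strand), was listed at 0 in both treated libraries, against 214, 249.9 and 266 in U87-R libraries and 241, 246 and 244 in U87 libraries (limma adjusted p = 9.4e-06). These genes stood at similar sums in both lines and had no base at all in the window after treatment. The same held for RRBP1, a ribosome-binding protein of the endoplasmic reticulum, AHSA1, which stimulates the chaperone HSP90, the glutathione transferase GSTO1, the carnitine acetyltransferase CRAT, the glycosyltransferase POMGNT1 and the cytokine CSF3. FLNC, an actin crosslinking filamin, kept a sum of 0 and 0.779 in treated libraries, against 386, 451 and 299 in U87-R libraries. The remainder of such a gene still held called bases, with sums that fell to different extents. RRBP1 outside the window had a mean sum of 325 in treated cells and 347 in U87-R. DUSP1 outside the window fell more, with 519 in treated cells and 1439.7 in U87-R. Without the first 200 nt the RRBP1 means were 221 in treated cells and 289 in U87-R.

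The 59 higher windows were weaker, and 33 of them (55.9%) had no base in any U87-R library. Windows listed at 0 in all 6 untreated libraries passed the filter on sums through the treated libraries alone. Their p-values therefore only describe them and are no independent support. NT5DC2, a protein with a nucleotidase-like domain (chr3:52524387-52535027, minus strand), had 86.8 and 95.4 in STM2457-treated libraries and was listed at 0 in all 6 others (limma adjusted p = 7.8e-05). GAK, a kinase that works in uncoating clathrin vesicles (chr4:849277-932316, minus strand), had 53.4 and 51.1 in treated libraries and was listed at 0 in the others (limma adjusted p = 1.2e-04). A window of 1000 nt ended the GAK call, with an adjusted p of 0.405. SHISAL1 and NABP1, a single-stranded DNA-binding protein, showed the same pattern with sums of 53.1 and 56.7 and of 57.9 and 40.7 in the treated libraries. NACA2, with 62.4 and 117 in treated libraries and 0 elsewhere, is a near copy of NACA, so its reads may belong to that gene. HOMER3, a postsynaptic scaffold protein, had 64.9 and 53.6 in treated libraries was listed at 0 in U87-R libraries and had 0, 0 and 51.9 in U87 libraries (limma adjusted p = 0.0168). It lost the call without treated replicate 1 (adjusted p = 0.113) and without treated replicate 2 (adjusted p = 0.0965).

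**Figure D4:**
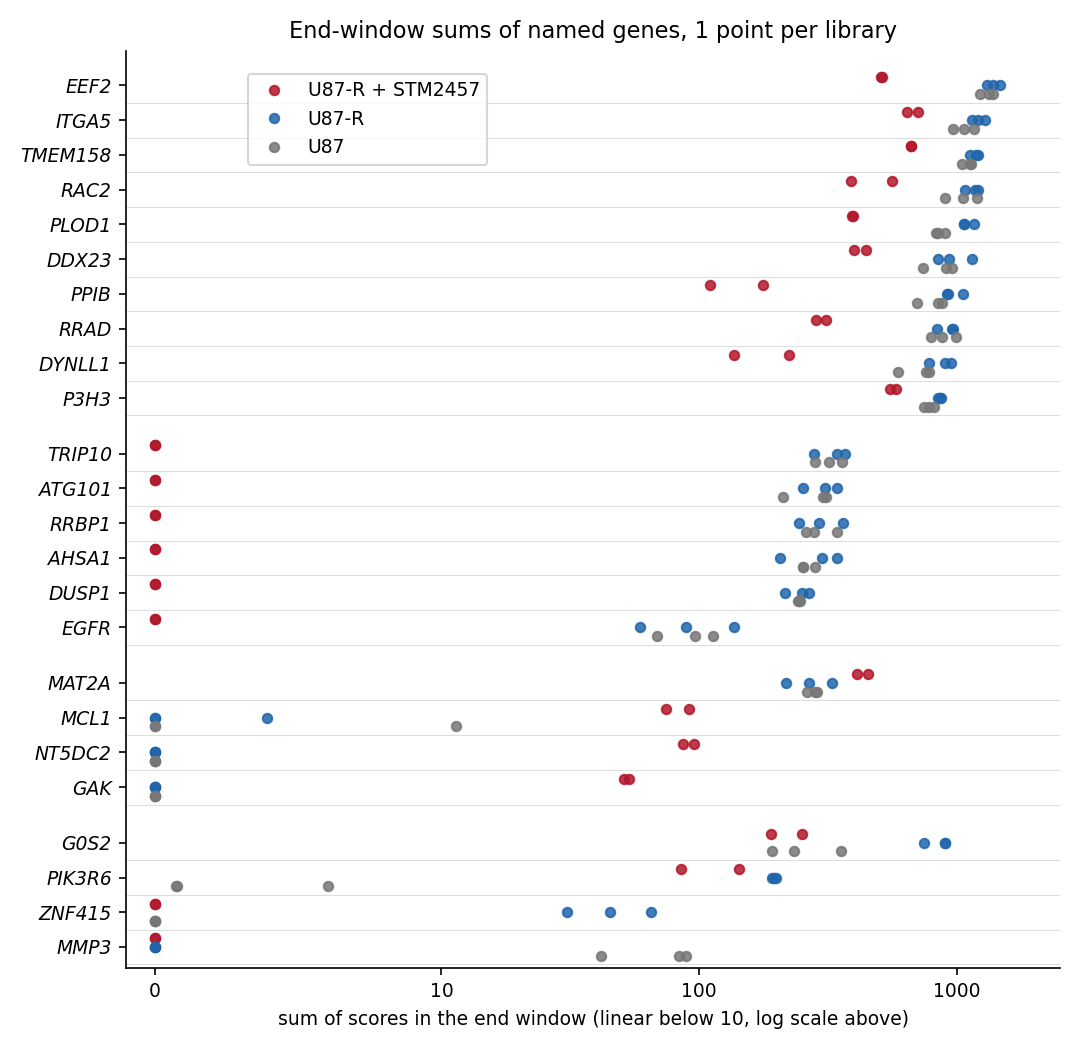
Sum of scores in the end window of named genes per library (horizontal axis, linear below 10 and logarithmic above), with 1 point per library and STM2457-treated libraries above U87-R and U87 in each gene's row. The genes with the highest sums and those listed at 0 after treatment are lower in treated libraries, MAT2A, MCL1, NT5DC2 and GAK are higher, and G0S2, PIK3R6, ZNF415 and MMP3 differ between U87-R and U87.

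Single bases of 1 window often differed in fate. At bases with at least 10 in all 6 untreated libraries, 3023 in 1265 windows, 1113 (36.8%) were listed in neither treated library, while 1143 (37.8%) still had at least 10 in both. These bases were chosen by their scores in untreated libraries, so the shares only describe them. Of 423 windows with at least 3 such bases, 51 (12.1%) lost all of them, 64 (15.1%) kept all in both treated libraries, and 215 (50.8%) held some that were absent from both and some called in both. Tested singly over 234426 bases with limma, 3181 of 15912 window bases fell (20.0%) and 286 rose (1.80%), against 12.7% and 4.72% over all bases. The bases that fell had a median log2 change of −4.22 and lay in 1380 genes, and those that rose had 3.48 and lay in 198 genes.

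PLOD1 shows such a mixture. Its bases at 399, 400 and 401 nt from the gene end were listed at 0 in both treated libraries. The one at 400 nt had scored 145, 170.3 and 153 in U87-R libraries and 85.7, 139 and 138 in U87 libraries (limma adjusted p = 7.2e-06). The base at 361 nt kept 91.9 and 97.8 in treated libraries, against 121, 145 and 126 in U87-R libraries. At 350 nt, a base with 91.4 and 97.4 in treated libraries was listed at 0 in all 6 others (limma adjusted p = 0.000611). In EEF2 the bases at 235, 259, 272, 292 and 295 nt were kept, the one at 292 nt with 98.7 and 99.4 in treated libraries, against 149, 160.2 and 158 in U87-R libraries. The EEF2 base at 464 nt was listed at 0 in treated libraries, against 86.2, 86.9 and 91.2 in U87-R libraries. In DDX23 the base at 349 nt was listed at 0 in treated libraries, against 188, 148 and 122 in U87-R libraries (limma adjusted p = 5.4e-06), while the base at 356 nt had 145 and 175 in treated libraries and 184, 185 and 177 in U87-R libraries. At 356 nt both treated values lay below those of U87-R, and at 349 nt no call was left. The serine protease HTRA1 lost a base at 455 nt that had 121, 141 and 128 in U87-R libraries (limma adjusted p = 4.7e-06). Bases that rose included MRPL14, a mitochondrial ribosomal protein, at 419 nt, with 58.9 and 63.4 in treated libraries and 0 elsewhere, and the transcription factor CEBPB at 259 nt, with 66.1 and 46.4 in treated libraries and 0 elsewhere (limma adjusted p = 0.000977 and 0.00116). Bases listed at 0 in all 6 untreated libraries entered the fit through the treated libraries alone. Those listed at 0 in both treated libraries entered through the untreated libraries alone. The p-values of both kinds only describe them. Bases next to each other may not be independent, which was not tested. In 8.18% to 14.3% of pairs 1 nt apart, depending on the library, the scores lay within 5% of each other. For pairs up to 10 nt apart the share was 8.05% to 12.2%. Without a share for distant pairs, these values cannot show dependence.

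**Figure D5:**
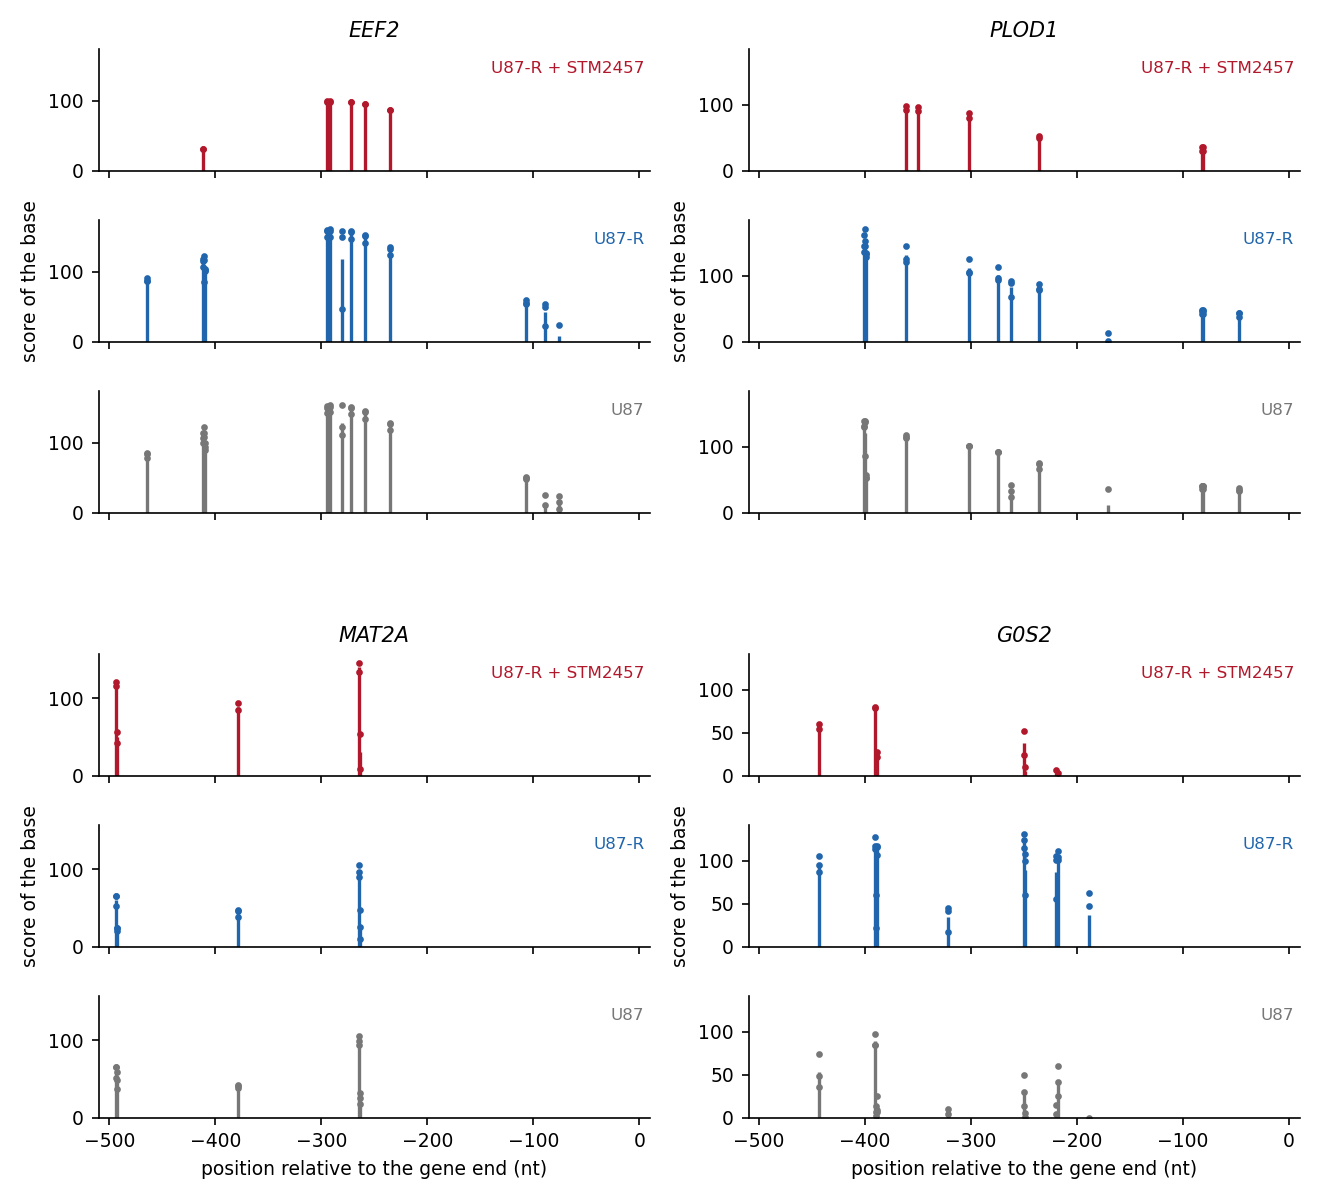
Score of each base with at least 10 in at least 2 libraries, by position in nt relative to the gene end, in EEF2, PLOD1, MAT2A and G0S2, with strips for STM2457-treated U87-R, U87-R and U87 from top to bottom. Bars are group means and dots are libraries in which the base was called. Some bases of EEF2 and PLOD1 vanish under STM2457 beside others that stay. The highest U87-R bar of MAT2A is taller under STM2457, and the bars of G0S2 are taller in U87-R than in U87.

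Of the m6A machinery, 7 of 22 genes had a window base and 6 windows were tested, with 1 higher and 2 lower under STM2457 and a median log2 change of −0.30, beside −2.49 for all windows, of which 61.3% were lower and 2.49% higher. The lists of genes were chosen with earlier results of these libraries known, so their counts are no independent evidence. MAT2A makes S-adenosylmethionine, the methyl donor for m6A, and its 3′ untranslated region carries hairpins that METTL16, another methyltransferase, methylates (chr2:85539168-85545281, plus strand). Its window sum was 452 and 408 in STM2457-treated libraries, against 266, 218 and 326 in U87-R libraries and 262, 287 and 281 in U87 libraries. Both treated libraries were above all others, with a limma log2 change of 0.69 ± 0.19 (SE), adjusted p = 0.0182. The call was lost without treated replicate 1 (adjusted p = 0.101) and without treated replicate 2 (adjusted p = 0.053), and in a window of 250 nt the sign turned (−3.01, adjusted p = 0.112). Its highest scoring base, at 264 nt, had 146 and 134 in treated libraries, against 90.8, 96.8 and 105 in U87-R libraries, and the base at 494 nt had 116 and 122 in treated libraries, against 65.9, 52.3 and 65.00 in U87-R libraries. The reader YTHDF1 and the demethylase ALKBH5 were listed at 0 in treated libraries, against 88.9, 66.2 and 29.5 and 44.98, 36.7 and 40.7 in U87-R libraries (limma adjusted p = 2.3e-04 and 1.6e-04). METTL3 itself had no window base in any library.

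DNA repair genes, which act on the lesions that temozolomide makes, had 8 of 28 genes with a window base. Of 5 tested windows 4 fell and 0 rose (limma; the fifth was not called), with a median log2 change of −4.06, beside 61.3% lower and a median of −2.49 over all windows. APEX1, an endonuclease of base excision repair, was listed at 0 in treated libraries, against 116, 36.6 and 68.4 in U87-R libraries and 8.33, 23.2 and 19.8 in U87 libraries. BRCA1, of homologous recombination, was listed at 0 in treated libraries, against 14.2, 18.3 and 20.8 in U87-R libraries (limma adjusted p = 3.7e-04 and 8.9e-04). MPG, a glycosylase that removes alkylated purines, was listed at 0 in treated libraries, against 26.1, 7.58 and 18.98 in U87-R libraries (limma adjusted p = 0.0295). MPG lost the call without either treated library (adjusted p = 0.142 and 0.137 without replicate 1 and 2) and without U87-R replicate 1 (0.08) or 3 (0.0723), and when libraries were centred (0.0536). The median of −4.06 is the fitted change of MPG alone, which depends on the pseudocount of 1 and is no fold. MGMT, which reverses the main toxic lesion of temozolomide, had no window base besides one of 0.238 in 1 treated library.

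Of receptor tyrosine kinase, PI3K and MAPK genes, 6 of 11 tested windows fell and 0 rose, with a median of −1.60. Over all windows 61.3% fell, with a median of −2.49, so this list fell no more often than windows at large. EGFR, the epidermal growth factor receptor (chr7:55019017-55211628, plus strand), was listed at 0 in STM2457-treated libraries, against 136, 88.8 and 58.6 in U87-R libraries and 113, 68.7 and 96.5 in U87 libraries (limma adjusted p = 7.8e-05). HRAS, the GTPase downstream of it, was listed at 0 in treated libraries, against 119.6, 85.1 and 129 in U87-R libraries (limma adjusted p = 4.7e-05), and the kinase MTOR at 0, against 50.1, 48.6 and 48.1 in U87-R libraries. Immediate early genes, switched on within minutes of growth signals, had 4 lower and 1 higher of 9, with a median of −2.24, beside 61.3% lower and 2.49% higher over all windows. Besides DUSP1, the lower ones included ZFP36L1, which promotes mRNA decay, with 18.96 and 3.78 in treated libraries and 175, 189.8 and 174 in U87-R libraries, and IER3, with 77.4 and 79.2 in treated libraries and 383, 426 and 320.0 in U87-R libraries. The one that rose was MCL1, an inhibitor of apoptosis (chr1:150574558-150579610, minus strand), with 74.2 and 90.9 in treated libraries, against 3.90, 0 and 0 in U87-R libraries and 0, 0 and 11.4 in U87 libraries (limma log2 change 5.61 ± 1.26 (SE), adjusted p = 0.00725). The MCL1 call was lost without treated replicate 1 (adjusted p = 0.0535) and without replicate 2 (0.0584). The rest of MCL1 moved the other way, with a mean sum of 1345 in treated cells and 2168 in U87-R.

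Of mRNA decay genes 5 of 5 tested windows fell, with a median of −4.21, beside 61.3% and −2.49 over all windows. Among them was the nonsense-mediated decay helicase UPF1, which was listed at 0 in treated libraries, against 54.4, 35.8 and 56.3 in U87-R libraries. The deadenylase PAN2 had 1.06 and 0 in treated libraries, against 95.6, 36.9 and 57.9 in U87-R libraries (limma adjusted p = 1.6e-04 and 2.1e-04). SMG6, an endonuclease of the same decay, lost its call without treated replicate 1 (adjusted p = 0.12) or 2 (0.116) and without U87-R replicate 3 (0.0656). The median of −4.21 is the fitted change of 1 gene, SMG6, and does not show how far the list fell. Of polyadenylation genes 3 of 6 fell and 0 rose, with a median of −1.23, again beside 61.3% and −2.49 over all windows. CPSF4 was listed at 0 in treated libraries, against 51.9, 66.1 and 37.1 in U87-R libraries. CPSF7 had 50.8 and 84.5 in treated libraries, against 163, 149 and 157 in U87-R libraries (limma adjusted p = 2.7e-04 and 0.00577), and lost its call when libraries were centred (0.12) or sums scaled to the library total (0.0786). SYMPK, a scaffold of the cleavage complex, lost its call without treated replicate 1 (0.113) and in a window of 250 nt (0.117).

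Mesenchymal and matrix genes had 7 of 9 tested windows lower and 0 higher, with a median of −2.42, close to the −2.49 of all windows, of which 61.3% were lower. The collagen chain COL5A1 was listed at 0 in treated libraries, against 16.96, 26.1 and 9.56 in U87-R libraries, and SNAI1, a transcription factor of mesenchymal transition, at 0, against 11.2, 10.9 and 19.4. Both calls were lost without treated replicate 1 (adjusted p = 0.0593 and 0.0809) and without replicate 2 (0.0554 and 0.0765). Housekeeping genes had 3 of 4 windows lower and 0 higher, with a median of −2.24, beside the same 61.3% and −2.49. The cytoskeletal actin ACTB had 35.2 and 44.1 in treated libraries, against 511, 388 and 447 in U87-R libraries (limma log2 change −3.47 ± 0.19 (SE), adjusted p = 2.0e-05). As a check of the cells, 6 of 8 glial and U87 genes, VIM, CD44, TNC, EGFR, NES and CHI3L1, had called bases in all 8 libraries, while GFAP and S100B, markers of astrocytes, had none. Of 23 markers of other cell types 5 had any called base, and their summed score was 231 to 281 in treated libraries, against 190 to 411 in U87-R libraries and 279 to 384 in U87 libraries. The 5 were CD68, PECAM1, SYT1, RBFOX3 and MBP. Most of the sum came from CD68, with 186 and 232 in treated libraries, 352, 157 and 403 in U87-R libraries and 338, 269 and 366 in U87 libraries. SYT1 had 34.8 and 34.1 in treated libraries. PTPRC, EPCAM, ALB and HBB were among the markers without a called base, which does not show that a gene is not expressed. Of these markers CD68 and PECAM1 had tested windows. In its end window CD68 was listed at 0 in treated libraries, against 53.97, 18.9 and 85.6 in U87-R libraries, a call lost in a window of 250 nt (limma adjusted p = 0.51). The strand of PECAM1 was taken from its called bases and is opposite to that gene's known strand, so its 7 window bases are counted here but do not belong to the end of PECAM1. The part of such markers in the results was not tested.

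The window was set against the rest of the same gene by limma on the difference of the log2 sums. With the first 200 nt of the gene in the rest, the change with STM2457 was lower in the window than in the rest in 1007 of 2184 genes (46.1%) and higher in 137 (6.27%), with a median difference of −2.07. Without those 200 nt it was lower in 653 of 1922 genes and higher in 190, with a median difference of −1.17. With the zone of 501 to 1000 nt, of nearly the same length, in place of the rest, 211 of 1136 genes had the window lower and 166 higher, with a median difference of −0.17. Window and rest both fell in 529 genes with the first 200 nt and in 707 without them, and the window fell while the rest rose in 151 with them and in 99 without. The window rose while the rest fell in 14 genes with the first 200 nt and in 19 without. Between the lines the window was called higher than the rest in 1 gene (0.0458%) and lower in 3 (0.137%). A window holds fewer bases than the rest of a gene and reaches 0 sooner, and the part of this in the result was not tested.

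The genes with the largest differences were picked from the sums that hold the first 200 nt, and some of them rest on those bases. CHD4, a chromatin remodelling helicase, was listed at 0 in the window in treated libraries, against 80.1, 76.3 and 120.2 in U87-R libraries. The rest of CHD4 had a mean sum of 199 in treated cells and 1.07 in U87-R, and the treated value was the same without the first 200 nt. TWF2, an actin-binding protein, was listed at 0 in the window in treated libraries, against 198, 139.6 and 122 in U87-R libraries, with a rest of 80.2 in treated cells and 0 in U87-R. All of that rest lay in the first 200 nt. The rest of the mitochondrial ribosomal protein MRPL38, whose window was also listed at 0 in treated libraries, had a mean of 1.04 in treated cells without the first 200 nt, against 72.6 with them. MAD2L2, a subunit of a translesion DNA polymerase, and HGS, of endosomal sorting, kept a higher rest in treated cells without the first 200 nt, 78.4 and 49.7, against 0 and 1.93 in U87-R.

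On the other side, APBB1, which binds the amyloid precursor protein, had 44.6 and 67.96 in the window in treated libraries and was listed at 0 in U87-R libraries, while the rest had a mean of 24.7 in treated cells and 237 in U87-R. CHMP1A, of membrane scission, the arginine methyltransferase CARM1 and RIMS3, a presynaptic protein, had the same order, with and without the first 200 nt. TNIP2, an inhibitor of NF-kB signalling, had a window of 0 and 8.71 in treated libraries and was listed at 0 in U87-R libraries, and that window was not called (limma adjusted p = 0.282). Its rest had a mean of 0.584 in treated cells and 90.5 in U87-R.

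Few end windows were called different between resistant and parental cells, which with 3 libraries per line does not show that they were the same. U87-R was grown with temozolomide and U87 without it, so line and drug cannot be told apart. Of 2367 windows 10 (0.422%) were higher and 5 (0.211%) lower in U87-R than in U87, against 0.788% higher and 0.363% lower over all rows (limma), with 176 at an unadjusted p under 0.05. The labels give replicate numbers and no pairing, but same-numbered U87 and U87-R libraries deviated weakly together (correlations of 0.121, 0.215 and 0.114). The main fit does not use this. With the replicate as a block 5 were higher and 1 lower, namely G0S2, PIK3R6, ZNF415, ZNF93 and REM1 higher and MMP3 lower. Leaving out U87-R replicate 2 turned the count of 15 into 32, leaving out U87 replicate 2 into 25, and leaving out U87-R replicate 3 into 6. No single window base was called by limma, with 1102 of 15912 at an unadjusted p under 0.05 and 2 called with a pseudocount of 10.

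G0S2, an inhibitor of fat cell triglyceride lipase (chr1:209675412-209676390, plus strand), had 898, 741 and 898 in U87-R libraries, against 192, 354 and 234 in U87 libraries, with no overlap. Limma gave a log2 change of 1.74 ± 0.24 (SE), adjusted p = 0.0135. The call was lost when U87-R replicate 1 (adjusted p = 0.0663), U87-R replicate 3 (0.0737) or U87 replicate 3 (0.0559) was left out, and in a window of 250 nt (2.51, adjusted p = 0.0592). STM2457-treated U87-R had 189.9 and 249.8, against the U87-R values above (limma log2 change −1.95 ± 0.26 (SE), adjusted p = 6.1e-04). Among its bases, the one at 389 nt had 107, 117 and 116 in U87-R libraries, against 8.88, 24.95 and 6.72 in U87 libraries, and the one at 391 nt had 114, 117 and 127 in U87-R libraries, against 84.01, 97.00 and 84.5 in U87 libraries.

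PIK3R6, a regulatory subunit of PI3K gamma (chr17:8802722-8867677, minus strand), had 198, 192 and 195 in U87-R libraries, against 0.752, 0.725 and 6.03 in U87 libraries (limma log2 change 6.14 ± 0.62 (SE), adjusted p = 0.00411). Its neighbour MFSD6L (chr17:8797110-8799365, minus strand) had 64.2, 14.1 and 68.2 in U87-R libraries and was listed at 0 in U87 libraries, a call lost with the block (adjusted p = 0.122). The zinc finger gene ZNF415 on chromosome 19 had 44.8, 65.2 and 30.8 in U87-R libraries and was listed at 0 in U87 libraries (limma adjusted p = 0.00411). ZNF93 had 53.5, 24.7 and 39.6 and the GTPase REM1 37.2, 33.6 and 43.1 in U87-R libraries, and both were listed at 0 in U87 libraries (limma adjusted p = 0.00502 and 0.0037). MMP3, a metalloproteinase that degrades matrix (chr11:102835801-102843609, minus strand), was listed at 0 in U87-R libraries, against 41.6, 88.9 and 83.1 in U87 libraries (limma adjusted p = 0.00341). It was also at 0 in STM2457-treated libraries, while the rest of the gene had a mean sum of 292 in U87-R and 386 in U87, and nearly all of it lay in the first 200 nt. The other 8 calls, ZNF83, ZNF480, DCTN5 and HSPA2 higher in U87-R and ATN1, USB1, IL36G and TBC1D2B lower, were lost with the block, with adjusted p of 0.0732 to 0.122. None of the 9 gene lists had a window called between the lines by limma. Windows listed at 0 in 1 line passed the filter on sums without that line, so their p-values only describe them.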

How the data were processed

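The deposited data hold, per library, called bases with a strand and a score, and per group, lists of reproducible sites and peaks. UMI-tools, cutadapt and STAR were used on hg38, per the submitters' processing notes. Which base and peak callers made the score deposited by the authors, and by which formula, is not stated in the sources used here. In the group lists, the authors' deposited fraction gives the share of libraries in which a site passed, and every STM2457 window site had it in both libraries. Files hold no read counts, so depth is unknown.

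Gene spans came from a RefSeq table on GRCh38.p14. The strand came from a reference table for 15842 of 20050 protein-coding genes, and for 1599 others from their called bases (at least 5, of which at least 80% on 1 strand). Where both existed, for 8309 genes, 209 disagreed. Of all called bases 373446 (82.6%) lay in 1 protein-coding gene of their strand, and 6339 in 2 or more were left out. Of the window bases 4260 rest on a strand taken from called bases, and 102 are mitochondrial.

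Scores were summed per window, bases not listed were set to 0, and log2(sum + 1) was fitted with limma 3.58.1 under R 4.3.3, using a mean-variance trend, 3 group means over 8 libraries and no scaling, with Benjamini-Hochberg adjustment over the whole table and a threshold of 0.05. Single bases called in at least 2 libraries were fitted likewise, and the fits were checked on simulated data. Values per library were compared by exact permutation tests, two-sided, with a smallest possible p of 0.1. The labels give no pairing of replicates. Deviations of same-numbered libraries correlated weakly between U87 and U87-R (0.121, 0.215 and 0.114) and hardly between U87-R and STM2457-treated libraries (0.0023 and −0.0087).

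Genes named are the 10 highest windows in U87-R, up to 10 largest called changes per direction without overlap, up to 3 per list and direction, the 5 largest differences between window and rest, the 5 largest single-base changes and MAT2A, METTL3, MGMT, EGFR, MYC and SOX2. METTL3, MYC and SOX2 had no window base, and a gene that this rule selects is not reported here. The members and lists were chosen with earlier results of these data known.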

Additional observations from a re-analysis of the deposited data

How the results depend on the processing

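The lower number, share and kept share of end-window bases under STM2457 held in direction under every alternative run: the ratio of bases ranged from 0.369 to 0.425 and the difference in kept share from −52.0 to −31.6 points. Of 85 named window calls, 58 held under every alternative in which their window was tested. A window that an alternative left untested was not counted as lost. The changed windows with STM2457 (1510) were 825 with a window of 250 nt and 2286 with 1000 nt, and 1194 to 1625 with 1 library left out. With the replicate block they were 1384, and it changed no call of a named gene besides those given in the report. Between the lines the 15 changed windows were 5 with sums of at least 50, 32 with 1000 nt, 6 with the replicate block, 9 with strands from the reference alone (added after seeing the data), and 6 to 32 with 1 library left out. The difference between window and rest with STM2457 (1144) was 673 with 250 nt, 377 against the zone next upstream (added likewise), and 951 to 1110 with 1 library left out. Between the lines it (4) was 1 with a pseudocount of 10, 1 with sums of at least 50, 7 with no filter, 10 with 1000 nt, 0 with the block, 0 against the zone, and 0 to 11 with 1 library left out. Single bases between the lines (0) were 2 with a pseudocount of 10 and 2 with a score of at least 10 in at least 3 libraries. The difference in window share between U87-R and U87 (−0.0106 points) was 0.0439 with 250 nt, 0.0392 with runs of bases and −0.107 to 0.105 with 1 library left out, and the ratio of window bases (1.02) was then 0.955 to 1.10. MAT2A turned to −3.01 with 250 nt and P3H3 to 0.026 with centred libraries. The cause of these shifts was not tested. Scores without read counts and 2 treated libraries limit the precision.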

Other observations

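A small set of window bases reached a score of 10 in the treated libraries alone. At least 10 in both STM2457-treated libraries and under 10 in the other 6 was found at 111 window bases, and 69 of these, in 47 genes, were not called in any other library. They were chosen by their treated scores, and the same count was not made outside the windows. By another measure, bases that rose by limma against U87-R were 1.80% of tested window bases and 4.72% of all tested bases. Rises by limma were therefore not particular to windows, which does not settle this for the 111 bases. Of the 111, 9 lay within 10 nt and 28 within 50 nt of a base that scored at least 10 in all 6 untreated libraries. Beyond PLOD1, MRPL14 and CEBPB, a base of NINJ1, a membrane protein that ruptures dying cells, 435 nt from the gene end, had 64.6 and 57.9 in treated libraries, was listed at 0 in U87-R libraries and had 0, 6.14 and 3.15 in U87 libraries (limma adjusted p = 0.00399). A base of the collagen chain COL6A2, 274 nt from the gene end, had 54.2 and 53.8 in treated libraries, was listed at 0 in U87-R libraries and had 11.9, 21.0 and 66.0 in U87 libraries (limma adjusted p = 0.00153).

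Among bases that scored at least 10 in all 6 untreated libraries, 86 of 3023 (2.84%) were higher in both treated libraries than in every other library. In 2436 of them (80.6%) both treated libraries were lower than every other. The same shares were not counted outside the windows. Peaks and called bases mostly came together. Of 2073 windows with a reproducible U87-R peak, 1935 (93.3%) held a called base in some library.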
